A study of Mus musculus with 16 samples.

Results

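The genes described here encode the cytosolic glutathione transferases (Gst), the UDP-glucuronosyltransferases and their relatives (Ugt) and the sulfotransferases (Sult). They were taken by symbol from the count tables: 64 of 24984 gene symbols carried one of these names, and 61 had at least 1 read in the 16 libraries. The 61 comprised 22 Gst, 19 Ugt and 20 Sult genes, and the 3 symbols without a read were Sult1c1, Ugt2a1 and Ugt2a2. The libraries were RNA-seq of whole kidney and whole liver from wild-type female C57BL/6 mice, with 4 libraries for each of 4 groups. All mice had received an adeno-associated virus of serotype 8 (AAV8) by tail vein at 24 months, the age the labels give, and tissue was collected 3 months later. In the shFos groups the virus carried a short hairpin RNA against Fos, a subunit of the AP-1 transcription factor, and in the NT groups it carried a non-targeting hairpin. The study asked how Fos knockdown changes the aged kidney and liver, and no library came from a mouse without virus. Because the tissue was whole, fewer cells of a type and less RNA per cell cannot be told apart.

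Conjugation makes small molecules more soluble so that they can leave the cell in bile or urine. Glutathione transferases attach the tripeptide glutathione to reactive electrophiles, glucuronosyltransferases attach glucuronic acid from UDP-glucuronate to bilirubin, steroids and drugs, and sulfotransferases move a sulfuryl group from the donor PAPS onto phenols, steroids and amines. Liver is the classical site of all 3 reactions, and the proximal tubule of the kidney also carries them out.

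The Ugt1a genes are an unusual case among these enzymes, because 8 alternative first exons on mouse chromosome 1 are each spliced to the same downstream exons. A read that lies wholly in the shared exons does not identify the gene. The sequences of the 8 splice junctions are shown because most of these genes are told apart only by what lies to the left of them. The sequences are from GENCODE M21 transcripts (mm10, plus strand, in genomic order). The last 36 bases of exon 1 are in lower case and the first 24 bases of the shared exon 2 (chr1:88215044-88215175) are in capitals.
Ugt1a10: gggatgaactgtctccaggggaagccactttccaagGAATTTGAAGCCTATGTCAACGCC
Ugt1a9: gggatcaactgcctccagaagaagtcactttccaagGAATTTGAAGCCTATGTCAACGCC
Ugt1a7c: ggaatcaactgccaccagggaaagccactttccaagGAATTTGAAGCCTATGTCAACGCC
Ugt1a6b: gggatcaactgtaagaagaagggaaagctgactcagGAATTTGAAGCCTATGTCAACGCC
Ugt1a6a: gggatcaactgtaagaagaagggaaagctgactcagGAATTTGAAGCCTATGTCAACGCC
Ugt1a5: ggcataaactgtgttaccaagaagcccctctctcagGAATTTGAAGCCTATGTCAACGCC
Ugt1a2: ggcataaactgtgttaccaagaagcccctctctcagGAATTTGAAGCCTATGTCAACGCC
Ugt1a1: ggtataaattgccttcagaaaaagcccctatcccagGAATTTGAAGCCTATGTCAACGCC
The part after the junction was identical in all 8 transcripts for the first 1300 bases. Before the junction, Ugt1a2 and Ugt1a5 had the same last 36 bases, as had Ugt1a6a and Ugt1a6b. Reads wholly within these shared bases could not be given to 1 of the 8 genes. In GENCODE M21 all 50-base words of Ugt1a6a, and 80.7% of those of Ugt1a6b, also lie in transcripts of Ugt1a7c, so the counts of both are uncertain. The levels below are the counts of each gene in CPM, scaled to a common library size, per kb of its exon 1. For 2 genes the first exon is not the unshared part in GENCODE M21. Ugt1a7c has 1913 unshared bases, because its annotation runs further at the 3′ end, against 915 in exon 1. Ugt1a6a has only 222 unshared bases against 954. The study's methods name the UCSC Table Browser as the source of its reference, so whether these lengths apply to its counts is not known.

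Kidney and liver differed in which Ugt1a genes had reads. In NT kidney Ugt1a2 (exon 1 at chr1:88200601-88201500) stood at 309 ± 105 CPM per kb (mean ± SD, n = 4 here and below), followed by Ugt1a7c at 39.6 ± 6.15 and Ugt1a1 at 4.96 ± 3.70. In NT liver the order was another: Ugt1a1, which conjugates bilirubin, stood at 393 ± 69.2, Ugt1a5 at 169 ± 114, Ugt1a9 at 30.8 ± 27.2, and Ugt1a6a and Ugt1a6b at 21.4 ± 2.36 and 21.2 ± 5.46. Per kb of unshared exon Ugt1a7c came to 18.9 ± 2.94 in NT kidney and kept its place, while Ugt1a6a came to 92.0 ± 10.1 in NT liver, above Ugt1a9, and 11.3 ± 4.07 in NT kidney, above Ugt1a1. Ugt1a2 and Ugt1a5, whose exons end in the same 36 bases, were read in opposite tissues. Ugt1a2 had 7806, 5060, 7596 and 3497 reads in the 4 NT kidney libraries and 1, 0, 0 and 3 in the 4 NT liver libraries, whereas Ugt1a5 had 6, 1, 1 and 1 in kidney and 3158, 1777, 1611 and 661 in liver.

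**Figure D1:**
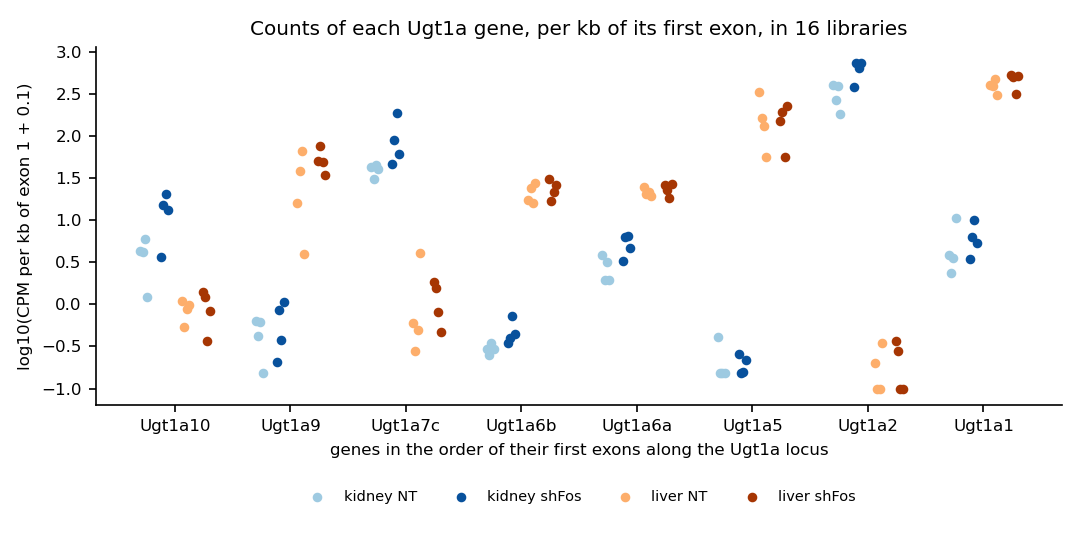
Counts of each Ugt1a gene, as log10 of CPM per kb of its exon 1 with 0.1 added, in the order of the first exons along the chromosome; each point is 1 library, coloured by group. Ugt1a10, Ugt1a7c and Ugt1a2 lie higher in the kidney groups, and Ugt1a9, Ugt1a6b, Ugt1a6a, Ugt1a5 and Ugt1a1 higher in the liver groups.

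Libraries held 14194543 to 15534665 counted reads in kidney and 16652150 to 18300277 in liver, so 3 reads correspond to 0.164 to 0.211 CPM, a floor that covers counting error only. CPM were normalized with TMM factors, and p-values measure the spread between these libraries. The 61 genes took 0.512 to 0.677% of counted reads in kidney and 0.758 to 1.25% in liver. Fos itself, the targeted gene, was at 6.71, 5.26, 4.23 and 5.29 CPM in the NT kidneys and 2.57, 4.12, 3.93 and 2.30 CPM in the shFos kidneys. These groups did not overlap, and the exact two-sided permutation p was 0.0286, the smallest that 4 against 4 allows, while edgeR gave -0.73 ± 0.25 (log2, SE) with an adjusted p of 0.0947. In liver Fos was at 1.12, 2.37, 3.70 and 2.86 CPM in NT and 1.63, 1.5, 2.76 and 1.38 CPM in shFos. The liver groups overlapped (exact permutation p = 0.343), so these Fos counts, 17 to 71 reads a library, did not separate the liver labels. The study reported lower Fos by RT-qPCR in both tissues of the shFos group. The 7 hepatocyte markers summed to 70173 to 197347 CPM in NT liver and at most 1354 CPM in any kidney library, and the 7 proximal tubule markers to at least 3916 CPM in kidney and at most 2.39 CPM in liver. Kidney NT library 4, liver NT library 4 and liver shFos library 3 each stood apart from their groups in ways given beside the results they touch. Kidney shFos library 1 lay near the NT values in many of the Ugt genes named below. Over all genes tested it was the lowest kidney library for 6.06% and the highest for 6.65%. For kidney shFos library 3 these shares were 17.0% and 20.3%.

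The first comparison was between the NT tissues and shows where each enzyme is made. Of the 57 genes that passed the low-count filter over all 16 libraries, 13 were higher in kidney and 41 higher in liver at an adjusted p under 0.05 (edgeR quasi-likelihood test with Benjamini-Hochberg adjustment over 15421 genes). Of all genes tested, 34.5% were called higher in kidney and 30.2% higher in liver, 64.7% together. The median log2 difference, kidney over liver, was -1.61 for the 21 Gst, -5.50 for the 19 Ugt and -6.79 for the 17 Sult genes tested, against 0.05 over all genes. The 4 genes that did not pass, Gstt4, Sult2a6, Sult6b1 and Sult6b2, had at most 9 reads in a library.

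The kidney side held a small set of highly expressed enzymes. Levels between genes are given as CPM per kb of exon not shared with another gene in GENCODE M21. The leading Gst genes in NT kidney were Gstm1 (519 ± 145 CPM per kb), a mu-class enzyme, and the alpha-class Gsta2 (449 ± 61.9) and Gsta4 (236 ± 39.5), the latter known for conjugating aldehydes of lipid peroxidation. Gstm1 and Gsta2 overlapped within their SDs, so their order is not resolved. Ugt1a2 (309 ± 105) and Ugt3a2 (174 ± 38.8) led the Ugt genes, ahead of Ugt3a1 (41.9 ± 14.7), and Ugt1a2 alone made up 51.4 ± 6.32% of the summed Ugt level per kb. Per kb of all its exons, shared ones included, Ugt1a2 came to 126 and fell behind Ugt3a2. Sult1d1 (245 ± 142), which sulfates catecholamines and other phenolic amines, made up 79.5 ± 5.36% of the summed Sult level, ahead of Sult1a1 (24.8 ± 13.7) and Sult1c2 (24.5 ± 6.13).

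In NT liver the Ugt and Sult levels were spread over more members. Gstm1 (2216 ± 169.5 CPM per kb) and Gsta3 (1058 ± 374) led the Gst genes, Gstm1 with 37.9% of the class against 25.5% in NT kidney, with Gstz1 (558 ± 97.5), the maleylacetoacetate isomerase of tyrosine breakdown, behind them. Ugt1a1 (393 ± 69.2), Ugt2b5 (345 ± 130.3) and Ugt2b36 (304 ± 108) had overlapping SDs, and no single Ugt exceeded 21.1% of the class or, for Sult genes, 32.2%. Per kb of all exons Ugt1a1 came to 161, behind both Ugt2b genes and Ugt3a2. Sult2a1 (998 ± 365) and Sult2a2 (904 ± 213), hydroxysteroid and bile acid sulfotransferases, were level with Sult1a1 (729.9 ± 289.5), the main phenol sulfotransferase, within their SDs. Sult2a1 and Sult2a2 are close copies: 33.2% and 62.1% of their 50-base words occur in other genes, so how reads divide between them is uncertain.

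**Figure D2:**
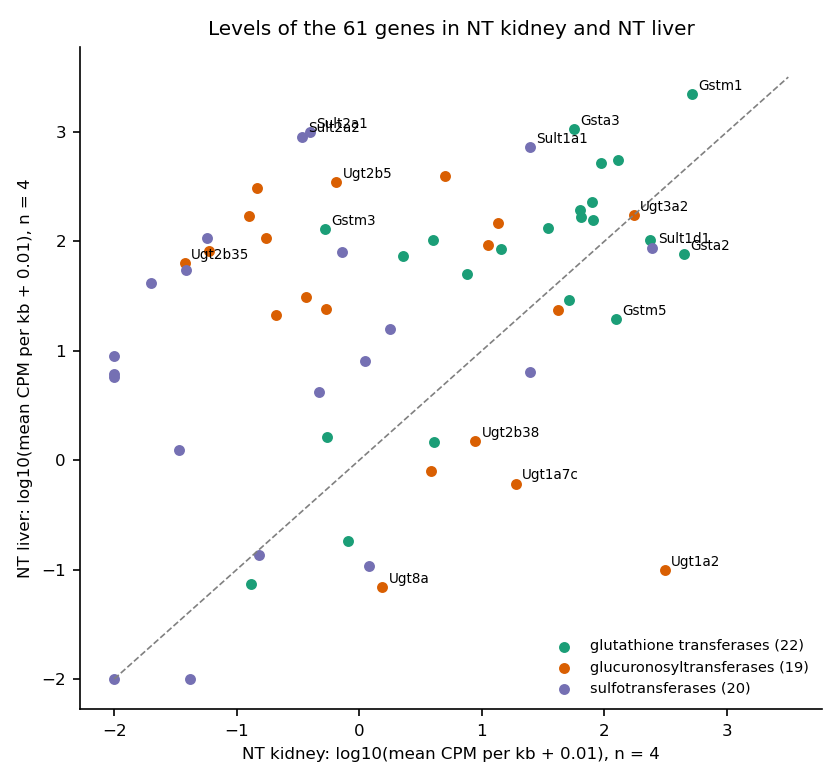
Mean level of each of the 61 genes in NT kidney (horizontal) and NT liver (vertical), as log10 of CPM per kb of unshared exon with 0.01 added, coloured by enzyme class; the dashed line marks equal levels. Most Sult and Ugt genes lie above the line, and Ugt1a2 lies farthest below it.

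Among the genes measured in both tissues, Gstm5 (chr3:107895821-107898686, mm10) was the mu-class exception: it was 2.67 higher in kidney on the log2 scale (SE 0.14, adjusted p = 8.68e-11), whereas the 6 other members of the Gstm cluster on chromosome 3 were higher in liver. Of these, Gstm3 (chr3:107963696-107969283) and Gstm6 (chr3:107938847-107943749) differed by -7.95 ± 0.31 and -4.70 ± 0.31 (SE). Gstm3 had 14, 18, 11 and 15 reads in the NT kidneys and 1605, 2106, 2988 and 1792 in the NT livers. Gsta2 was 2.55 ± 0.37 higher in kidney, Gsta4 1.20 ± 0.23 and Gstt2 0.81 ± 0.23, while Gsta3 differed by -4.23 ± 0.37 and the pi-class Gstp1 by -2.47 ± 0.17, that is, higher in liver. For Gsta2, 64.2% of the 50-base words also occur in other genes, mainly in Gsta1.

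The Ugt2 cluster on chromosome 5 also held 1 gene that went against the rest. Ugt2b38 (chr5:87409942-87424203) was 2.56 ± 0.42 higher in kidney (adjusted p = 5.47e-05), and the 7 other Ugt2 genes with reads were higher in liver. Ugt2b5 (chr5:87124960-87140318) had 21, 13, 23 and 45 reads in NT kidney and 8198, 8492, 11302 and 3833 in NT liver, and Ugt2a3 (chr5:87324972-87337195) had 10, 5, 13 and 2 and 3072, 3615, 3664 and 824. The differences were -9.07 ± 0.54 and -9.32 ± 0.61, and with so few kidney reads their size is less certain than their direction. Ugt8a, which makes the galactolipids of myelin and of kidney membranes, was 4.60 ± 0.66 higher in kidney at a low level (8.99 ± 1.86 CPM). Ugt3a2 did not separate the tissues (0.01 ± 0.23, adjusted p = 0.963).

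Among sulfotransferases, Sult1d1 (1.49 ± 0.29), Sult1c2 (1.96 ± 0.40) and Sult2b1 (3.52 ± 0.65), the cholesterol sulfotransferase, were higher in kidney, and 14 of the 17 tested were higher in liver. Sult2a5, Sult2a7 and Sult3a2 had no read in any NT kidney library. Against a floor of 3 reads per library, and in CPM of the library totals without TMM factors, they were at least 32.5-fold, 26.2-fold and 18.8-fold higher in NT liver.

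In kidney, edgeR called no gene at all, and the conjugation genes with an unadjusted p under 0.05 were mostly Ugt on the higher side and Gst on the lower. At an adjusted p under 0.05, edgeR called 0.0% of 14892 genes and 0 of the 42 conjugation genes tested, with a smallest adjusted p of 0.065 among them. At an unadjusted p under 0.05, 8 were higher and 8 lower, which is 38.1% of the 42 against 32.0% of all genes (17.1% higher and 14.9% lower), a share near the background. DESeq2 on the same libraries called 7 higher, all Ugt, and 2 lower, Gstm7 and Sult5a1 (20.5% of 44, against 17.0% of all genes, of which 9.78% higher and 7.2% lower). Leaving out shFos library 1, edgeR called 8 higher, the same 7 Ugt genes and Sult1c2, and 4 lower, Gstm2, Gstm3, Gstm7 and Sult5a1 (28.6%, against 27.8%, of which 12.6% higher and 15.2% lower). DESeq2 without that library called 15 (27.6% of all genes) and edgeR without it and NT library 4 called 18 (34.8%), both in fits added after the data were seen. With edgeR fitted over all 16 libraries, 3 were called (6.4%).

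The fitted changes of the Ugt genes that passed the low-count filter shared one sign. All 14 that passed the filter had a fitted log2 fold change above 0, from 0.27 to 1.78. Their median was 0.70 against 0.00 over all genes, of which 50.3% were above 0. The 14 were read in the same libraries and several share exons or sequence, so they are not 14 independent results. The 5 that did not pass had at most 17 reads in any kidney library. Of these, Ugt1a5 and Ugt2b1 had lower means in shFos (ratios 0.819 and 0.464), and Ugt1a6b, Ugt2b35 and Ugt2b36 had higher ones. Among the 14, Ugt1a9 and Ugt2a3 also had few reads, at most 16 and 21 in a kidney library. The summed Ugt level was 1479.7, 1133, 1533 and 989.8 CPM in the NT kidneys and 1515, 2268, 2648 and 2564 CPM in the shFos kidneys. NT library 4 was lowest, and shFos library 1 lay inside the NT range while shFos libraries 2, 3 and 4 lay above it. Within this sum the 8 Ugt1a genes summed to 585, 393, 569.8 and 294 CPM in NT and 549, 1066, 1133 and 1046 CPM in shFos. Summed Gst levels were 3361 ± 371 CPM in NT and 3027 ± 93.8 CPM in shFos, and summed Sult levels 965 ± 482 CPM and 1005 ± 219 CPM. By library the Sult sums were 741, 591, 859 and 1669 CPM in NT and 725, 979, 1062 and 1253 CPM in shFos, with NT library 4 the highest.

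Ugt1a2, the leading kidney enzyme of the class, was at 513, 341, 495 and 225 CPM in the NT libraries 1 to 4 and 476, 914, 837 and 934 CPM in the shFos libraries. The fit gave a log2 fold change of 1.01 ± 0.29 (SE), adjusted p = 0.0719 by edgeR and 0.00876 by DESeq2. The shFos libraries 2, 3 and 4 lay above every NT library and library 1 did not.
Ugt1a7c, from the same locus, was at 55.5, 40.4, 57.7 and 50.9 CPM in the NT libraries 1 to 4 and 58.9, 115, 246 and 79.0 CPM in the shFos libraries. It was the 1 gene of the higher side whose groups did not overlap (1.28 ± 0.39, adjusted p = 0.0768), though the gap between NT library 3 and shFos library 1 was small. Its fitted change was 0.72 without shFos library 3, the highest, and 0.72 to 1.47 over the libraries left out in turn. Of all genes tested in kidney, 17.2% had groups that did not overlap (9.16% with shFos higher and 8.04% with shFos lower), against 9.52% of the 42, 1 higher and 3 lower.
Ugt1a10 started from a low level and had the largest fitted change of the class, at 5.52, 5.39, 7.62 and 1.42 CPM in the NT libraries 1 to 4 and 4.56, 19.3, 27.4 and 17.6 CPM in the shFos libraries (1.78 ± 0.57, adjusted p = 0.0807). Ugt1a6a, which conjugates planar phenols, was at 5.06, 2.49, 4.17 and 2.45 CPM in the NT libraries 1 to 4 and 4.24, 8.25, 8.87 and 6.30 CPM in the shFos libraries (0.96 ± 0.32, adjusted p = 0.0858).

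Outside the Ugt1a locus, Ugt2b38 was at 31.2, 23.7, 26.0 and 13.3 CPM in the NT libraries 1 to 4 and 25.0, 49.9, 79.7 and 63.8 CPM in the shFos libraries (1.21 ± 0.35, adjusted p = 0.0721). Ugt2b34, from the same cluster, was at 95.7, 76.9, 81.7 and 73.8 CPM in the NT libraries 1 to 4 and 80.9, 139, 222 and 142 CPM in the shFos libraries (0.83 ± 0.26, adjusted p = 0.077). Both were highest in shFos library 3, and in both shFos library 1 fell within the NT values. Ugt3a2, a UDP-glycosyltransferase that does not use glucuronate, was at 649.9, 538, 699 and 403 CPM in the NT libraries 1 to 4 and 692, 826, 1016 and 1019.7 CPM in the shFos libraries (0.63 ± 0.20, adjusted p = 0.0773). The 1 sulfotransferase on the higher side was Sult1c2, at 66.0, 67.1, 81.4 and 41.6 CPM in the NT libraries 1 to 4 and 63.6, 90.9, 146 and 113 CPM in the shFos libraries (0.69 ± 0.27, adjusted p = 0.116). Ugt2b38 shares 37.4% of its 50-base words with other genes, mostly Ugt2b5, which itself had no more than 72 reads in a kidney library.

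The genes on the lower side were mostly glutathione transferases. Gstm7 (chr3:107926334-107931817), none of whose 50-base words occur in another gene, was at 24.2, 26.7, 26.1 and 40 CPM in the NT libraries 1 to 4 and 20.7, 20.2, 16.2 and 18 CPM in the shFos libraries. The groups did not overlap, with a log2 fold change of -0.64 ± 0.17 (SE), adjusted p = 0.065 by edgeR and 0.015 by DESeq2. NT library 4 was far above the other NT libraries, and without it the log2 fold change was -0.45.
Gstm3 was at 0.920, 1.21, 0.717 and 0.967 CPM in the NT libraries 1 to 4 and 0.707, 0.399, 0.215 and 0.384 CPM in the shFos libraries, again without overlap (-1.13 ± 0.39, adjusted p = 0.0908), on 3 to 18 reads a library. Gstm6 was at 5.85, 8.90, 7.75 and 5.35 CPM in the NT libraries 1 to 4 and 5.78, 4.92, 3.5 and 4.61 CPM in the shFos libraries (-0.56 ± 0.23, adjusted p = 0.13), with overlap. Gstt2, a theta-class enzyme, was at 118, 169, 148 and 223 CPM in the NT libraries 1 to 4 and 112, 99.7, 137 and 118 CPM in the shFos libraries (-0.50 ± 0.19, adjusted p = 0.109), and its groups overlapped as well. No single Gst gene of the 20 tested had an unadjusted p under 0.05 on the higher side, and 6 had one on the lower side, beside 17.1% and 14.9% of all genes. Of these 6, Gsta1 and Gstp3 depended on NT library 4, as given next.

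Sult5a1 likewise had no overlap, at 5.06, 6.47, 4.69 and 7.35 CPM in the NT libraries 1 to 4 and 4.18, 2.13, 1.5 and 2.69 CPM in the shFos libraries (-1.16 ± 0.32, adjusted p = 0.067 by edgeR and 0.0101 by DESeq2). Sult1a1 was at 39.3, 34.0, 33.5 and 86.9 CPM in the NT libraries 1 to 4 and 34.9, 32.0, 23.5 and 25.8 CPM in the shFos libraries (-0.74 ± 0.31, adjusted p = 0.14). Here the fitted change depended on NT library 4, without which it was -0.29. The same held for Gstp3 (-1.73 ± 0.75, and -0.59 without it) and Gsta1 (-0.88 ± 0.38, and -0.40 without it). NT library 4 was the highest or the lowest of the 8 kidney libraries for 30 of the 42 genes, highest for 16 and lowest for 14, while it was highest for 24.1% and lowest for 27.0% of all genes tested.

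**Figure D3:**
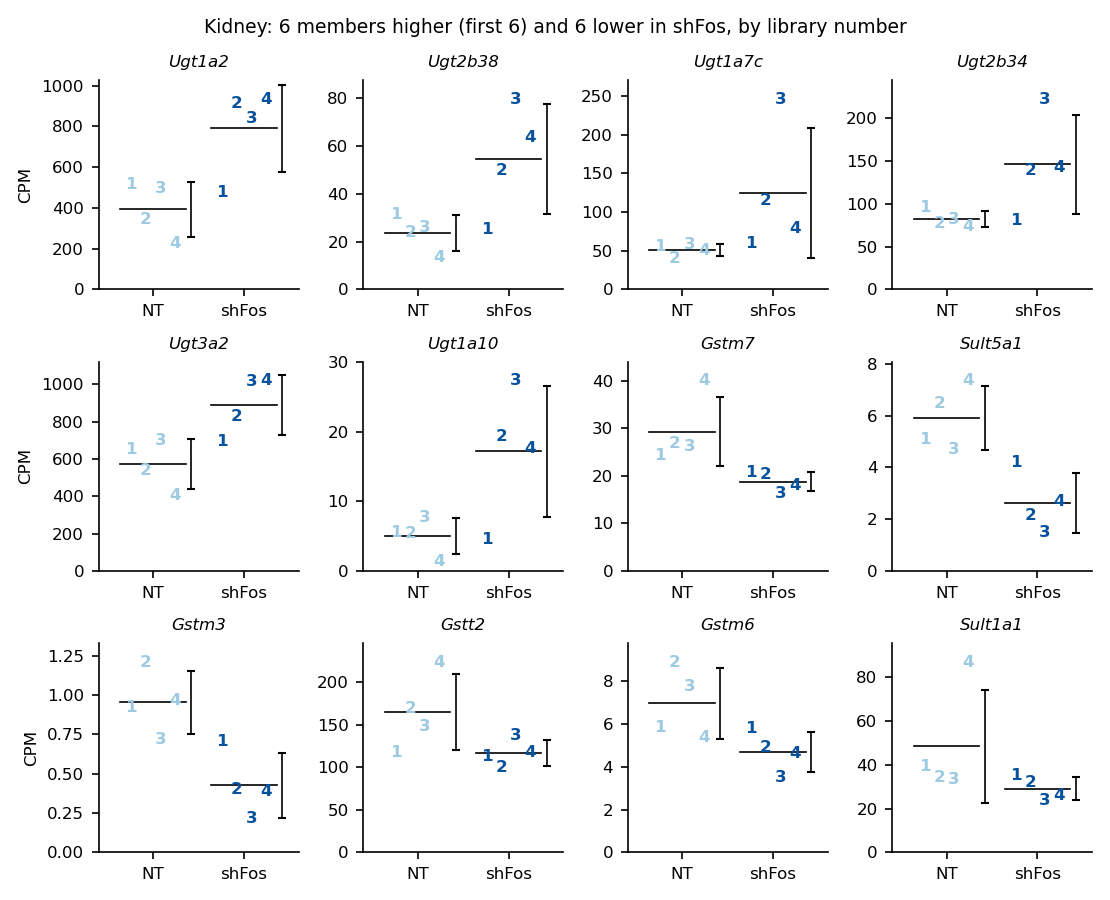
CPM of the 6 genes with the smallest p on the higher side (Ugt1a2 to Ugt1a10) and on the lower side (Gstm7 to Sult1a1) in kidney; digits are library numbers, lines are means and bars are SDs (n = 4). In the 6 Ugt panels shFos library 1 lies at or near the NT values and the other 3 shFos libraries lie above them.

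Markers of cell types and of the circadian clock also differed between the kidney groups, and not all of them in the library pattern of the Ugt values. The 7 proximal tubule markers summed to 7039.9, 6195, 7715 and 3916 CPM in the NT kidneys and 7412, 9346, 9955 and 10462 CPM in the shFos kidneys, lowest in NT library 4 and highest in shFos libraries 2, 3 and 4, as the summed Ugt level was. All 7 had a fold change above 0 and 3 an unadjusted p under 0.05, beside 17.1% of all genes on the higher side. The 4 podocyte markers summed to 281 to 414 CPM in NT and 356 to 742 CPM in shFos, and the 4 endothelial markers to 143 to 211 and 244 to 278 CPM, with a fold change above 0 for each of the 8. Other lists went mostly the other way. The fold change was below 0 for 4 of 6 thick limb, distal and collecting duct markers and for all 4 cholangiocyte markers. It was also below 0 for 4 of 5 lymphocyte and 3 of 4 macrophage markers tested. In shFos library 1 the podocyte sum was 356.5 CPM, inside the NT range, and the endothelial sum 248 CPM, above it. Of 15 clock genes, 4 were higher and 8 lower at an unadjusted p under 0.05, beside 17.1% and 14.9% of all genes. In shFos library 1, Arntl (43.4 CPM) and Per3 (9.38 CPM) lay outside their NT values, and Clock (58.2 CPM) lay within them. Kidney NT library 4 also stood apart in other sums. The 9 acute-phase genes summed to 304 CPM in it, against 29.8 to 99.8 CPM in the other kidneys. The 6 neutrophil markers summed to 21.3 CPM, against 3.06 to 5.58 CPM. Lymphocyte markers summed to 11.7 CPM, against 108.4 to 292.7 CPM, and the 5 macrophage markers to 151 CPM, against 245 to 403 CPM. The part of any of these differences in the conjugation values was not tested.

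Promoters were read for letters like those that AP-1 binds, since its Fos subunit was targeted. Of the 61 genes, 53 had a promoter of 250 bases before to 50 after the start in the RefSeq table (GRCm38.p6), 64 promoters in all. The letters TGANTCA, here called the AP-1 letters, occurred on either strand in 11 of the 64 promoters and in 7.8% of all 32851. N stands for any base, so TGATTCA and TGAATCA are counted beside the usual AP-1 site, TGACTCA or TGAGTCA. The HNF1-type letters GTTAAT, a core of sites for a factor of liver and proximal tubule, occurred in 14 (all promoters, 7.1%), and the antioxidant response letters TGACNNNGC in 3 (all promoters, 12.4%). The motifs do not overlap one another in the promoters shown. Among the 7 Ugt genes on the higher side in kidney, of which Ugt3a2 has no entry in the table, the AP-1 letters occurred in Ugt1a6a (-124 from the start) and Ugt2b38 (-166), and the HNF1-type letters in Ugt1a10 (-100 and -71) and Ugt1a6a (-50). These 3 promoters are shown 5′ to 3′ in the direction of transcription, matches in capitals, because they are the genes of the higher side in kidney with a match. Ugt1a10 is at chr1:88055161-88055460 (plus strand), Ugt1a6a at chr1:88134559-88134858 (plus) and Ugt2b38 at chr5:87424154-87424453 (minus). The start of the Ugt1a6a promoter is the gene start at chr1:88134809. It lies upstream of the exon 1 at chr1:88138378-88139331 whose junction and level are given above.
Ugt1a10: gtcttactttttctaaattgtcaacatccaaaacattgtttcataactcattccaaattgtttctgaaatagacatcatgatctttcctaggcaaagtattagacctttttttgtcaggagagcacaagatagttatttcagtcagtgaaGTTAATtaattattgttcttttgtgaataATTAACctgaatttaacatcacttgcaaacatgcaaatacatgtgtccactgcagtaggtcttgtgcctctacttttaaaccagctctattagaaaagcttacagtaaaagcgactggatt
Ugt1a6a: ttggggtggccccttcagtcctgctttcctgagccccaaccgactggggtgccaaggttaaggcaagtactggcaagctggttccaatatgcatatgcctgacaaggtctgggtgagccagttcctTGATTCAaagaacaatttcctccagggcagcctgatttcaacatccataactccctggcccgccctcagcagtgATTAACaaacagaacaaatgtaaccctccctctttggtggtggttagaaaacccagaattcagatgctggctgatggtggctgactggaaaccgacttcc
Ugt2b38: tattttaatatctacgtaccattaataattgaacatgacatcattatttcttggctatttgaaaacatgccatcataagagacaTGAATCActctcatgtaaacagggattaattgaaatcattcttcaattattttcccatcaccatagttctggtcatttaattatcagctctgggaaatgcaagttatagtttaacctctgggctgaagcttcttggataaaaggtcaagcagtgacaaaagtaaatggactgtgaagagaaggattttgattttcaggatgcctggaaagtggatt
A match is a string of letters and was not tested as a binding site. The AP-1 letters read TGATTCA in Ugt1a6a and TGAATCA in Ugt2b38, neither of them the usual AP-1 site. Ugt1a2, Ugt1a7c and Ugt2b34, which were high in the same shFos libraries, carried neither set of letters in this window.

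Genes that supply the reactions and remove their products were followed in 10 lists of 65 genes. In kidney 62 were tested and 0 were called by edgeR; 10 were higher and 2 lower at an unadjusted p under 0.05 (19.4% of the 62, against 32.0% of all genes), with a median log2 fold change of 0.12 against 0.00 over all genes. From 9 of the lists the gene with the smallest p is given. Abcg2, an exporter of urate and sulfate conjugates, was at 254 ± 40.3 against 426 ± 124 CPM in NT against shFos (0.74 ± 0.22, adjusted p = 0.0719). Bpnt1, which clears the phosphoadenosine left by sulfation, was at 188 ± 23.3 against 267 ± 50 CPM (0.51 ± 0.15, adjusted p = 0.0732). Slc35d1, which carries UDP-glucuronate into the endoplasmic reticulum where Ugt enzymes work, had the opposite sign, at 56.7 ± 8.86 against 40.3 ± 4.94 CPM (-0.49 ± 0.13, adjusted p = 0.0652).
Gstcd was at 8.76 ± 1.13 against 12.6 ± 1.86 CPM (0.52 ± 0.16), Cth of cysteine supply at 188 ± 29.2 against 237 ± 36.8 CPM (0.33 ± 0.15), and Anpep, an aminopeptidase of mercapturate formation, at 184 ± 47.5 against 261 ± 65.1 CPM (0.51 ± 0.23). Nfe2l2, which encodes the regulator Nrf2, was at 150.2 ± 8.44 against 173 ± 13.6 CPM (0.20 ± 0.09), Gusb, a beta-glucuronidase, at 34.9 ± 6.02 against 40.3 ± 3.87 CPM (0.21 ± 0.14), and the Nrf2 target Hmox1 at 28.7 ± 6.05 against 34.5 ± 6.71 CPM (0.27 ± 0.19). Adjusted p for the 6 genes from Gstcd to Hmox1 ran from 0.0734 to 0.354.

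In liver, most conjugation genes differed between shFos and NT by less than the spread of the libraries, and the libraries that stood apart came from both groups. Of 52 genes tested edgeR called 0, as it called 0.0% of 13144 genes, and DESeq2 called 1, Sult1e1, against 0.219% of all genes (0.125% lower). At an unadjusted p under 0.05, 4 passed, which is 7.69% against 6.82% of all genes: Sult2a5 and Gstk1 on the higher side, and Sult1e1 and Gstm2 on the lower (all genes, 3.6% and 3.23%). The groups did not overlap for 2 genes, Sult2a5 and Sult1e1, which is 3.85% against 4.31% of all genes, 2.79% higher and 1.52% lower. The median log2 fold change was 0.17 for Gst, 0.15 for Ugt and 0.07 for Sult genes, against -0.01 over all genes.

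Sult1e1, the estrogen sulfotransferase, was at 12.8, 12.9, 1.98 and 164 CPM in the NT libraries 1 to 4 and 0.561, 0.889, 1.76 and 1.56 CPM in the shFos libraries. NT library 4 was far above all others, NT library 3 was close to the shFos values, and the counts behind them were 194, 224, 38 and 3092 in NT and 10, 16, 30 and 26 in shFos. The fit gave a log2 fold change of -5.33 ± 1.32 (SE), adjusted p = 0.685 by edgeR and 0.0143 by DESeq2. Without NT library 4 the log2 fold change was -2.95 (edgeR adjusted p = 0.573).
Sult2a5, a hydroxysteroid sulfotransferase, was at 8.84, 4.04, 9.47 and 4.23 CPM in the NT libraries 1 to 4 and 23.8, 10.5, 38.9 and 14.1 CPM in the shFos libraries (1.72 ± 0.45, adjusted p = 0.702 by edgeR and 0.0502 by DESeq2). All 4 shFos livers were above all 4 NT livers, with little distance between NT library 3 and shFos library 2, and 34.5% of the 50-base words of Sult2a5 occur in other genes.

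Gstk1, the kappa-class enzyme of mitochondria and peroxisomes, was at 102, 132, 90.2 and 84.7 CPM in the NT libraries 1 to 4 and 138, 117, 153 and 139 CPM in the shFos libraries (0.42 ± 0.16, adjusted p = 0.703). Gstm2 was at 189.8, 193, 114 and 158 CPM in the NT libraries 1 to 4 and 117, 127, 119 and 98.6 CPM in the shFos libraries (-0.50 ± 0.18, adjusted p = 0.702). In both genes 1 NT library fell among the shFos values. Of the alpha-class genes, 3 had larger fitted changes with wide errors: Gsta4 0.53 ± 0.26, Gsta2 0.83 ± 0.44 and Gsta1 1.89 ± 1.08, with adjusted p of 0.727, 0.728 and 0.733. Gsta1 rested on shFos library 3 with 202 reads against 5 to 12 in the other shFos livers, and 89.7% of its 50-base words are shared, chiefly with Gm3776. Gstt1 was at 237 ± 117 CPM in NT and 383 ± 87.7 CPM in shFos (0.69 ± 0.42). The other 4 named on the lower side were Sult3a1 (-1.13 ± 0.51), Sult3a2 (-1.48 ± 0.73), Sult4a1 (-1.91 ± 1.30) and Ugt2b35 (-0.20 ± 0.12), none with an adjusted p under 0.726. Sult4a1 depended on NT library 1, without which its log2 fold change was 0.16.

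Low liver values often lay in NT library 4, for some genes together with shFos library 3, which carries the opposite label. NT library 4 was the lowest of the 8 livers for 34 of the 52 genes, while it was the lowest for 26.0% of all genes tested. NT library 4 and shFos library 3 were together the lowest pair for 19 of the 52, Sult2a3 and Ugt2b37 among them. How often this pair was lowest over all genes was not counted. On its own, shFos library 3 was the lowest of the 8 livers for 7 of the 52 genes and the highest for 8. Over all genes tested it was the lowest for 10.8% and the highest for 12.5%. Sult2a3 was at 80.5, 76.1, 69.4 and 3.6 CPM in the NT libraries 1 to 4 and 86.7, 81.8, 2.88 and 102 CPM in the shFos libraries. Ugt2b37 was at 54.4, 53.7, 21.8 and 0.159 CPM in the NT libraries 1 to 4 and 11, 18.4, 0.998 and 93.6 CPM in the shFos libraries. Sult2a7 and Sult5a1 had the same shape, at 0.635 and 2.06 CPM in NT library 4 and 0.646 and 2.23 CPM in shFos library 3, against 2.84 to 34.6 and 13.3 to 49.8 CPM in the other 6 livers. Ugt1a5, second to Ugt1a1 in the locus in liver, was at 35.0 and 35.2 CPM in the pair and 83.9 to 208 in the rest. These genes were chosen after their values were seen, as were Sult2a8 and Ugt2b1.

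In other genes NT library 4 was lower than shFos library 3. Sult2a8 was at 2.70 CPM in NT library 4, 71.8 in shFos library 3 and 161 to 282 in the rest. Ugt2b1 was at 38.5, 164 and 146 to 231 CPM in the same order. Acute-phase genes separated the 2 libraries: the 9 genes summed to 83342 CPM in NT library 4, 18666 in shFos library 3 and 8001 to 19828 in the rest. The 6 neutrophil markers summed to 161 CPM in NT library 4 and 4.37 to 51.2 CPM in the other livers, and the 7 hepatocyte markers to 70173 against 118731 to 197347 CPM. Within the hepatocyte sum, Alb was at 27345 CPM in NT library 4 and 95719 to 170014 CPM in the other livers. Apoa1 (8895 CPM) and Apob (3719 CPM) in NT library 4 lay within the range of the other livers. The 6 periportal hepatocyte markers summed to 3112, 4704, 4487 and 2454 CPM in NT and 4689, 4875, 6623 and 5752 CPM in shFos, and the 6 pericentral markers to 6744, 6419, 4484 and 3378 CPM and 4532, 4424, 3618 and 3816 CPM. The part of any of these in the conjugation values was not tested. With both libraries left out, edgeR still called 0 of 52.

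**Figure D4:**
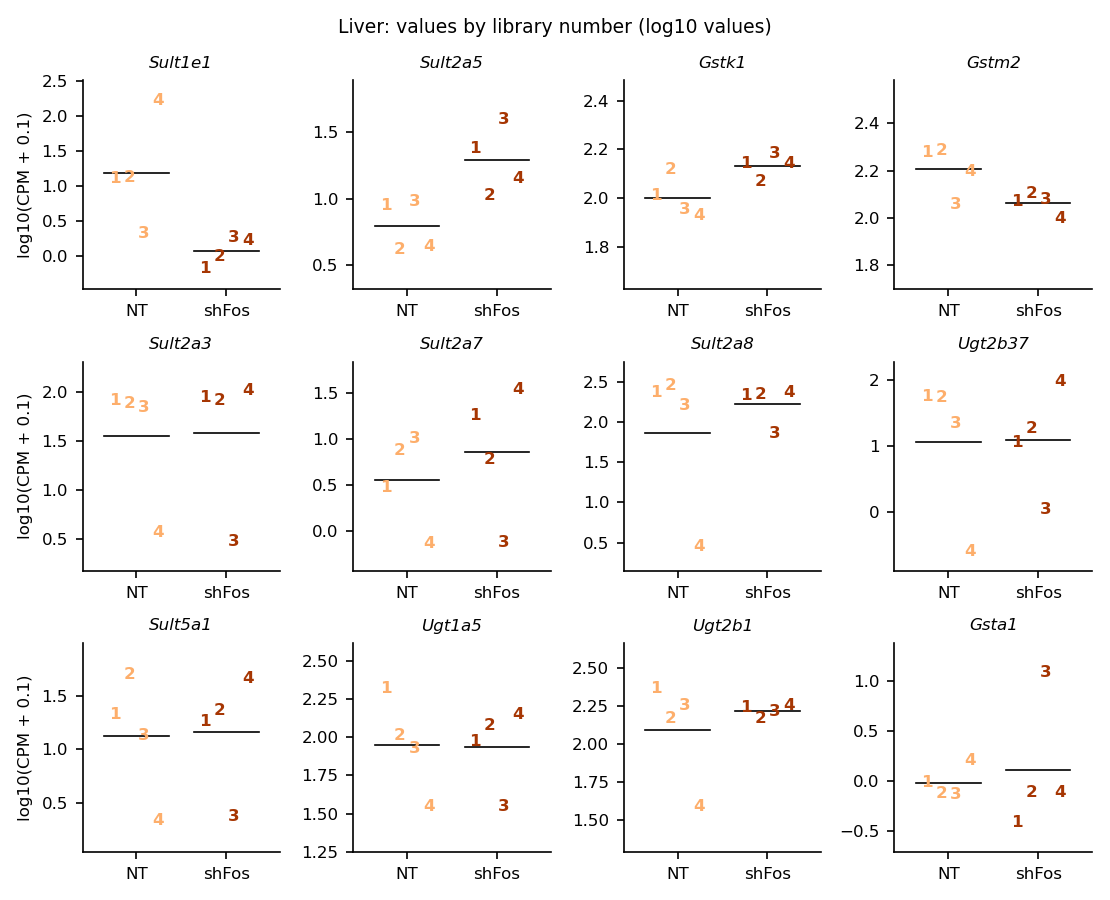
Liver values as log10 of CPM with 0.1 added, for the 4 genes with an unadjusted p under 0.05 (top row) and 8 genes in which NT library 4 or shFos library 3 stands apart; digits are library numbers and lines are means of the log values. In the panels of Sult2a3, Sult2a7 and Sult5a1 the digits 4 of NT and 3 of shFos lie together at the bottom.

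The conjugation genes spread more within groups than genes in general. The median SD of log2(CPM + 1) in NT liver was 0.582 for the 52 genes and 0.255 over all genes tested, and in shFos liver 0.301 and 0.169. In kidney it was 0.317 against 0.172 in NT and 0.356 against 0.189 in shFos.

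Among the 65 pathway genes, 61 were tested in liver and edgeR called 0; 3 were higher and 0 lower at an unadjusted p under 0.05 (4.92%, against 6.82% of all genes). Nr1i2, which encodes the xenobiotic receptor PXR, was at 67.7, 70.7, 81.9 and 55.8 CPM in NT and 102, 101, 119.7 and 97.7 CPM in shFos, without overlap (0.60 ± 0.14, adjusted p = 0.685 by edgeR and 0.0516 by DESeq2). Cth was at 322 ± 127 against 572 ± 186 CPM (0.83 ± 0.35) and Gstcd at 3.40 ± 0.591 against 4.71 ± 0.789 CPM (0.47 ± 0.20). The first-ranked genes of the other lists were Nat1 (0.38 ± 0.18), Acy1 (0.36 ± 0.17), Ugdh (0.61 ± 0.31), which makes UDP-glucuronate, Hmox1 (-0.73 ± 0.37), Bpnt1 (0.18 ± 0.09), Abcc4 (0.34 ± 0.18) and Gusb (-0.01 ± 0.13), all with an unadjusted p above 0.05.

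The last comparison asked whether the response to shFos differed between tissues, as the log2 change in liver minus that in kidney. Of 57 genes edgeR called 0, as it called 0.0% of 15421 genes; DESeq2 called 0 as well, against 2.26% of all genes. At an unadjusted p under 0.05, 8 passed, which is 14.0% against 16.1% of all genes, 6 Gst genes above 0 and 2 Ugt genes below 0 (all genes, 7.85% and 8.22%). Gstm7 had a difference of 0.84 ± 0.24 (SE, adjusted p = 0.188), from -0.64 in kidney and 0.18 in liver. Without kidney shFos library 1 its adjusted p was 0.0488, the 1 gene of the 57 then called (1.75%, against 7.88% of all genes, 3.97% in this direction). Gstk1 had 0.66 ± 0.20 and Gstm3 1.35 ± 0.46, with adjusted p of 0.188 and 0.2. Ugt1a6a had -0.83 ± 0.34 (adjusted p = 0.261), from 0.96 in kidney and 0.12 in liver. Gsto2, an omega-class enzyme, had 1.66 ± 0.72 (adjusted p = 0.274), on no more than 18 reads in a liver library.

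**Figure D5:**
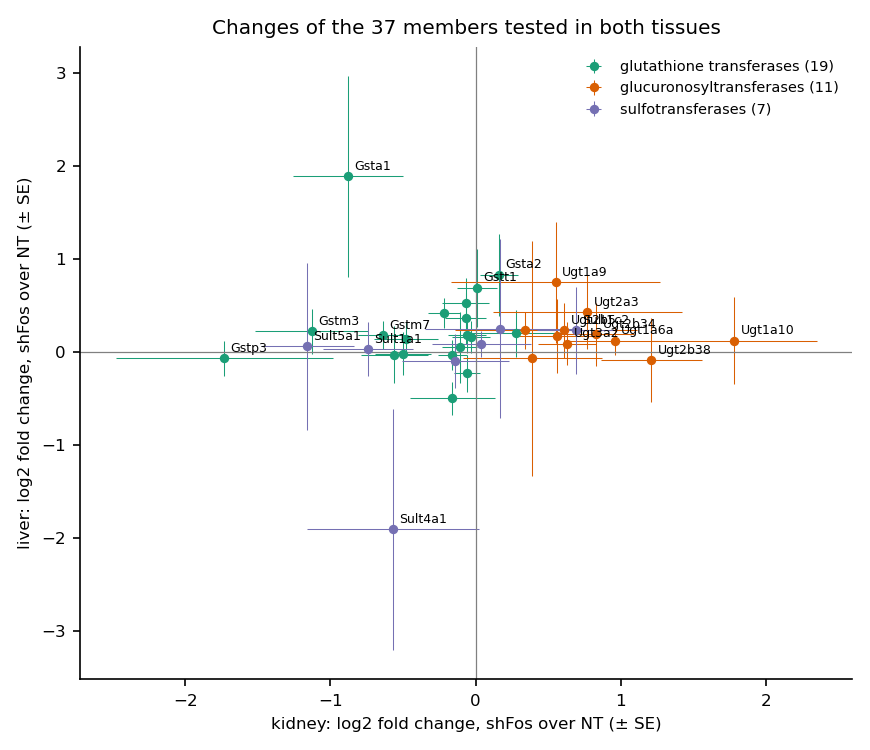
Log2 fold change of shFos over NT in kidney (horizontal) and liver (vertical) for the 37 genes tested in both tissues, with standard errors, coloured by class. The 11 Ugt genes lie to the right of 0 in kidney and 8 of the 11 lie within 1 standard error of 0 in liver. edgeR called none of the 37 in either tissue.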

How the data were processed

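Gene counts of 16 RNA-seq libraries were used as the authors deposited them, as whole-number counts per gene symbol with 5 summary lines of HTSeq. Per the study's methods and the submitters' processing notes, reads were trimmed with Trimmomatic 0.39, aligned to mm10 with HISAT2 2.2.1 and counted with HTSeq 0.12.4 without regard to strand. How reads that map to several places were treated, and the overlap mode, are not given in the sources used here. Reads outside genes were 13.4 to 26.7% and ambiguous reads 1.84 to 2.64% of the total, and neither entered library sizes or tests. Antisense and overlapping genes cannot be told apart in such counts.

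Groups follow the tissue and treatment labels. Each tissue was fitted alone, over all genes, with edgeR 4.0.16 in R 4.3.3 (filterByExpr, TMM factors, robust quasi-likelihood test, Benjamini-Hochberg adjustment), and calls were made at an adjusted p under 0.05. The comparison of the NT tissues and the difference between tissues used all 16 libraries. CPM are TMM-normalized. DESeq2 1.42.0, other scalings, filters, GC and length corrections, replicate blocks and leaving out libraries were alternatives. The test scripts were tested on simulated counts. Replicates of a group differed beyond sampling noise (smallest chi-square per degree of freedom 7.5), so none was counted as a duplicate. The same-numbered NT kidney and NT liver libraries deviated together (correlations 0.115 to 0.326), though kidney library 1 correlated most with liver library 3. Between shFos kidney and shFos liver the correlations ran from 0.039 to 0.147, and kidney library 3 correlated most with liver library 2. For shFos against NT within a tissue they ran from -0.261 to 0.116.

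The genes named with values were Fos, the 6 members with the smallest p on each side in each tissue, the 3 highest per kb in each class and tissue, the 5 with the smallest p of the difference between tissues, the 5 with the smallest p on each side of NT kidney against NT liver, members sharing sequence where a result turns on them, and the gene with the smallest p of each pathway list. One gene that this rule names is not reported here. Members and lists were chosen with earlier results of these data known. Exon lengths and splice junctions came from GENCODE M21 (98.2% of symbols matched) and promoters from RefSeq.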

Additional observations from a re-analysis of the deposited data

Results flagged for a closer look

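In 142 groups of 4 libraries, over the 41 genes named with values, 1 library was set against the other 3 by Dixon's test at the 95% level. It stood apart in 15 groups, where chance gives about 7.1. Liver NT library 4 did so 4 times, and kidney NT library 4 and liver shFos library 3 did so 3 times each.

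Liver NT library 4 was high for Sult1e1 (164 CPM, others 1.98 to 12.9) and Gstp1 (389 CPM, others 272.5 to 287), and low for Ugt2a3 (43.6 CPM, others 191 to 209) and Ugt3a1 (11.3 CPM, others 43.9 to 50.4). Liver shFos library 3 was high for Gsta1 (11.9 CPM, others 0.281 to 0.667) and Gstm7 (125 CPM, others 87.0 to 93.4), and low for Ugt1a1 (203 CPM, others 323 to 338). Kidney NT library 4 was high for Gsta3 (199 CPM, others 88.7 to 102), Gstm7 (40 CPM, others 24.2 to 26.7) and Sult1a1 (86.9 CPM, others 33.5 to 39.3).

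Kidney shFos library 3 was high for Gsta3 (255 CPM, others 102 to 124) and Ugt2b5 (5.15 CPM, others 1.46 to 2.06). The remaining 3 values were Sult4a1 in liver NT library 1 (24.9 CPM, others 0.106 to 4.21), Gstm7 in liver NT library 2 (104 CPM, others 79.6 to 83.4) and Sult1d1 in liver shFos library 4 (197 CPM, others 144 to 147).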

How the results depend on the processing

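The number of conjugation genes called in kidney depended on the libraries and the test. It was 0 by edgeR, 9 by DESeq2, 3 in a fit of all 16 libraries and 0 to 12 when 1 library was left out, with 12 without shFos library 1. Alternatives chosen after seeing the data gave 15 by DESeq2 without shFos library 1 and 18 by edgeR without NT library 4 and shFos library 1. In liver the count was 0, and 1 by DESeq2 (Sult1e1), with 0 whichever library was left out. The difference between tissues gave 0, and 0 to 1 with 1 library left out (Gstm7 without kidney shFos library 1). The cause of these changes was not tested. The NT tissue comparison kept 13 genes higher in kidney and 40 higher in liver under the replicate block, and 13 to 14 and 40 to 41 with 1 library left out. In the NT groups the pairing by number held except for kidney library 1. The replicate block changed no count of calls in kidney or liver, where it stayed at 0.

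The ratio of Fos in kidney was 0.602, and 0.547 to 0.660 with 1 library left out, where 3 against 4 cannot reach an exact p under 0.05. Ratios of summed levels, shFos over NT, with 1 library left out were 0.872 to 0.951 for Gst in kidney (0.843 on raw CPM, 0.900 otherwise), 0.922 to 1.38 for Sult in kidney, 1.05 to 1.18 for Gst in liver and 0.962 to 1.24 for Ugt in liver. The highest Sult ratio was without kidney NT library 4, and the lowest Ugt ratio without liver NT library 4. Per kb of total exon, Ugt1a2 in NT kidney came to 126, behind Ugt3a2 at 174, and Gstz1 and Ugt1a1 in NT liver to 434 and 161, the latter behind Ugt2b5 at 345 and Ugt2b36 at 304. Of 1258 alternative values over 59 single-gene results, 1180 kept their direction and side of the threshold, 68 passed the threshold and 10 changed sign. The changes of sign were in liver: Gsta1 (-0.75 to 2.27 with 1 library left out and -0.75 without shFos library 3, -0.40 without NT library 4 and shFos library 3), Sult4a1 (-2.44 to 0.16, the latter without NT library 1) and Gusb, which was near 0 throughout (0.00 with the replicate block, 0.01 in the fit of 16, -0.11 to 0.05 with 1 library left out, 0.07 without both).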
